A study of Mus musculus with 16 samples.

Results

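Integrins are the receptors that hold cells to their matrix, and laminins are the basement membrane proteins that many of them bind. The genes described here were all symbols of the deposited count table that name an integrin α subunit, an integrin β subunit or a laminin chain. The rule took 37 of 55487 genes: 18 integrin α subunits, 8 integrin β subunits and 11 laminin chains. It used names alone and no measured value.

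Each integrin is a pair of 1 α and 1 β subunit, and the pair sets which ligand the cell can hold: laminin, collagen, fibronectin, vitronectin, or a counter-receptor on another cell. Each laminin is a trimer of an α, a β and a γ chain that vessel wall cells, glia and fibroblasts lay down, and in the spinal cord it lines vessels and the outer surface of the tissue. After an injury these proteins are known for their part in the entry of blood-borne cells, in the sealing of the lesion and in what a growing axon can adhere to.

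The study asked how removing the Wnt receptor Ryk from astrocytes changes the cell types around a spinal cord lesion. WT mice were Ryk+/+,GFAPcreERT2 and cKO mice were Rykfl/fl,GFAPcreERT2, so both genotypes carried the tamoxifen-inducible Cre, which a human GFAP promoter drives in astrocytes. Mice aged 8 to 10 weeks received tamoxifen on each of 7 days from 5 days before the operation, and the dorsal columns were cut at cervical level C5. Tissue around the lesion was dissociated at 1 d, 7 d or 14 d, or from mice without a lesion, which the sample labels call Sham and the paper calls uninjured, with 2 mice for each of the 8 conditions, 16 mice in all and both sexes in roughly equal number.

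Each mouse gave 1 droplet library of transcript 3′ ends. The authors' table holds raw counts of unique molecular identifiers (UMIs, single captured RNA molecules) for 18203 cells in 17 clusters. No doublet caller was run and no cell was removed as a doublet, and neither the methods nor the files say whether the authors removed any. WT 1 d replicate 2 contributed 1 cell with 266 UMIs and was left out, so 1 d rests on 3 mice. The other 15 mice had 208 to 1845 cells and 536263 to 9008729 UMIs each. In uninjured mice the UMIs were 3074681 and 2117284 in WT and 774242 and 1963422 in cKO. At 1 d they were 536263 in WT and 666731 and 4601448 in cKO. At 7 d they were 649625 and 3032957 in WT and 1236573 and 9008729 in cKO, and at 14 d 3074365 and 8786767 in WT and 6559483 and 7264837 in cKO. Levels are given as CPM, counts per 1e6 UMIs of the same mouse and cell type. Because UMIs of 3′ ends are not divided by transcript length, 1 gene is compared between cell types, and different genes are not compared with each other.

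Several libraries stood apart or went against their labels. Replicate 1 of WT and of cKO at 1 d and at 7 d had a median of 414 to 548 UMIs per cell, against 1040.5 to 3637 in the other 11 mice. These 4 libraries also shared 28 to 115 cell barcodes in each of their 6 pairs, and 89.3% to 93.9% of the shared barcodes lay in the same cluster in both. The other 38 pairs of libraries with a barcode in common shared 1 to 4. For 6 mice, all replicate 2, the names of the cells carried another condition than the sample title: WT uninjured was named cKO uninjured, cKO uninjured was named WT 7 d, WT 1 d was named WT 14 d, WT 7 d was named WT 1 d, WT 14 d was named cKO 14 d and cKO 14 d was named cKO 7 d. The cell table gave the condition of the title in all 16 mice, and the titles were followed. What brought about the shared barcodes and the other names was not tested. Results are therefore also given without these mice or cells, and with each mouse assigned by its cell names.

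Ryk itself was read in the astrocyte clusters first. In uninjured mice its level was 123 and 54.0 CPM in WT and 66.1 and 85.1 CPM in cKO. At 1 d Ryk was at 101 CPM in the WT mouse, on 6 UMIs, and at 23.0 and 69.0 CPM in cKO, the first on 1 UMI. At 7 d it was at 157 and 116 CPM in WT and 90.1 and 119 CPM in cKO, and at 14 d at 105 and 108 CPM in WT and 121 and 123 CPM in cKO. The genotypes overlapped in uninjured mice and at 7 d, both cKO mice lay below the WT mouse at 1 d, and cKO lay above WT at 14 d. The difference of cKO from WT was −0.08 on the log2 scale (SE 0.24, edgeR adjusted p = 1.0, 15 mice). The 3′ ends that were read may lie outside the deleted stretch, so this level does not measure how much Ryk was removed.

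The authors' cluster names were set against marker genes. Cldn5, Pecam1 and Flt1 led in the endothelial cluster, Rgs5 and Pdgfrb in pericytes, P2ry12, Cx3cr1 and Tmem119 in Cluster 6 of microglia, Aqp4, Gfap and Slc1a2 in Cluster 5 of astrocytes, and Prx in Schwann cells. Acta2, a smooth muscle marker, also led in the pericyte cluster, at 1421 ± 1082 CPM. Myh11, Myl9 and Tagln were among the 10 leading genes of that cluster. Pericytes here means this whole cluster, in which pericytes and smooth muscle cells were not separated. The cluster labelled myeloid cells led in the neutrophil genes S100a8, S100a9 and Ly6g. The cluster labelled Unk led in 3 of the ependymal markers, Foxj1, Ccdc153 and Tmem212, and is called ependymal-like. Cluster 2, labelled as astrocytes, had 0 markers among its 10 leading genes, which included the neurofilament genes Nefl, Nefm and Nefh, and it held the highest means of Mbp and Snap25. It is called Cluster 2 here. Clusters 4, 7, 8, 10 and 11 also had 0 markers among their 10 leading genes, and their names are the authors' and were not settled by the markers. In the tests below Cluster 2 is part of the astrocyte class, which was also run without it.

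Of the 37 genes, 36 had at least 100 UMIs in all. For these 36 the cell type with the highest mean over mice was recorded, with no test, since these counts also defined the clusters. A detailed pattern is given for genes whose highest mean was at least 100 CPM and at least 3 times that of the next cell type, which took Lama1, Itga9, Lamc3, Itgb5 and Lamb1.

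**Figure D1:**
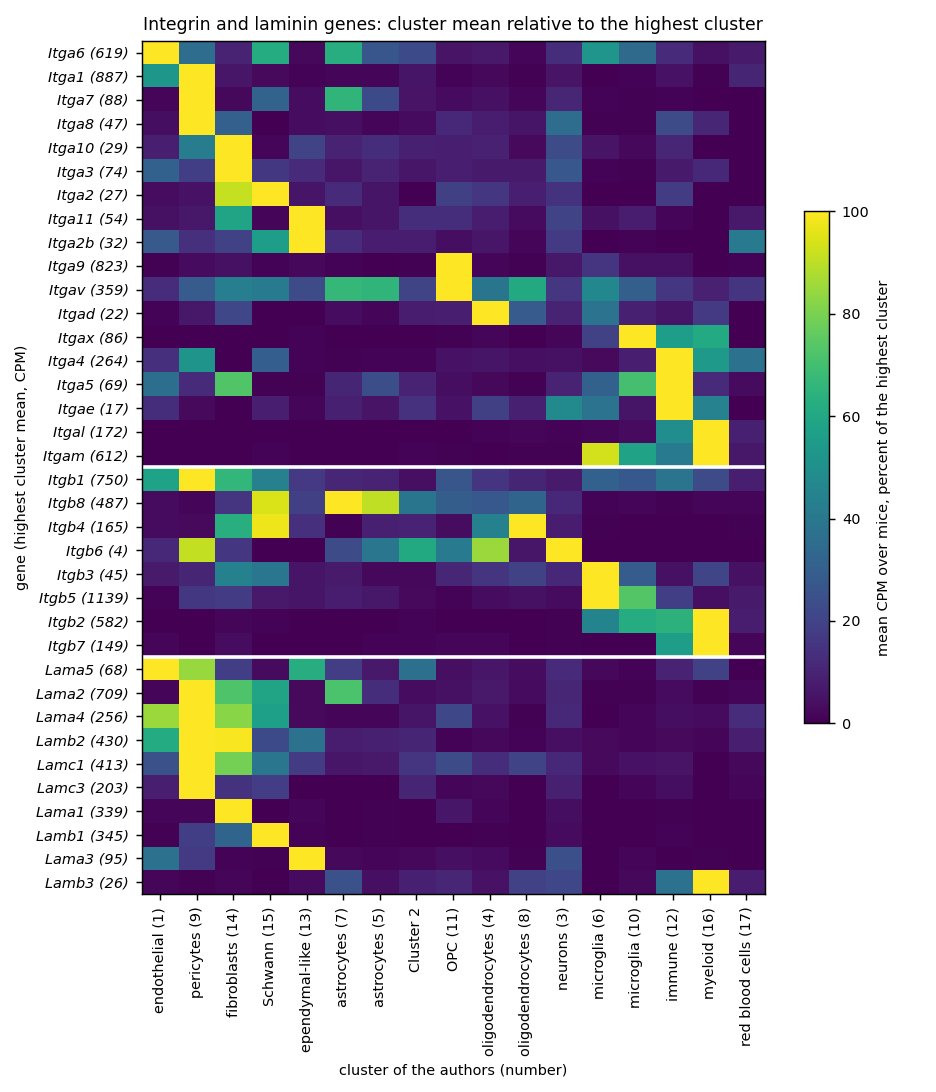
Mean level of 36 integrin and laminin genes in 17 clusters, each gene as a percentage of its highest cluster mean, with that mean in CPM in parentheses. Laminin chains peaked mostly in pericytes, fibroblasts, endothelial and Schwann cells, and Itgb2 and Itgal in myeloid cells.

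The α subunits that bind laminin and collagen peaked in different cell types. Itga1, whose product binds collagen and laminin, averaged 887 ± 249 CPM in pericytes (SD, n = 15) and 469 ± 125 CPM in endothelial cells, and pericytes were higher in 15 of 15 mice. For Itga6, the α subunit of the main laminin receptors of endothelium and glia, the order was reversed: 619 ± 165 CPM in endothelial cells against 222 ± 109 CPM in pericytes, with endothelial cells higher in 15 of 15 mice. Itga6 was next highest in Cluster 7 astrocytes at 385 ± 102 CPM (n = 15) and Schwann cells at 383 ± 129 CPM (n = 5), levels that did not differ beyond their spread. Itga7, another laminin receptor subunit, reached 88.4 ± 29.8 CPM in pericytes, 57.8 ± 20.6 CPM in Cluster 7 astrocytes, the next cluster, and 1.31 ± 1.84 CPM in endothelial cells. Itga3, also a laminin receptor subunit, was highest in fibroblasts at 74.3 ± 94.2 CPM (n = 9), on 48 UMIs. Endothelial cells were next at 23.1 ± 5.55 CPM, and fibroblasts were above them in only 5 of 9 mice. The collagen receptor subunits Itga2, Itga10 and Itga11 were low everywhere, with highest means of 27.2 CPM in Schwann cells, 28.7 CPM in fibroblasts and 53.8 CPM in ependymal-like cells. Fibroblasts were next for Itga2 at 24.8 ± 59.8 CPM, and its leading cell type changed in 8 of 23 alternative settings.

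Itga9 marked oligodendrocyte precursor cells. The gene encodes a subunit that binds tenascin-C, osteopontin and VCAM-1 (ENSMUSG00000039115.13, chr9:118606690-118901003, + strand, mm10). In these precursors Itga9 ran from 465.97 to 1359 CPM with a median of 823 CPM over 14 mice, and the mean of 823 ± 252 CPM was 6.57 times that of Cluster 6 microglia, the next cluster. The precursors were higher in 14 of 14 mice. An Itga9 UMI was seen in 47.9% of precursor cells at a median depth of 1000 UMIs. The share was 21.2% of Cluster 6 cells at 780.5 UMIs and 0.976% of endothelial cells at 890.0 UMIs. Itgav, the α subunit of vitronectin receptors, was also highest there at 359 ± 188 CPM, though within its spread of Cluster 7 at 239.6 ± 103 CPM and Cluster 5 at 235 ± 144 CPM. Within mice that had both, Itgav was higher in the precursors than in Cluster 7 in 11 of 14. The leading cell type of Itgav changed in 0 of 23 alternative settings.

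Itga4 and Itga5, α subunits of fibronectin receptors, both had their highest mean in immune cells. Itga4, which binds VCAM-1 and fibronectin and takes leukocytes across vessel walls, led in immune cells at 264 ± 184 CPM (n = 10), with 143 ± 119 CPM in myeloid cells and 137 ± 61.8 CPM in pericytes. Itga5, the fibronectin receptor subunit, was at most 69.1 ± 49.7 CPM, in immune cells. Itga8, whose product binds nephronectin, was at 46.9 ± 42.2 CPM in pericytes and 16.7 ± 11.3 CPM in neurons, the next cluster, with pericytes higher in 10 of 15 mice and lower in 5. Itga2b, the platelet fibrinogen receptor subunit, reached 31.8 ± 22.0 CPM in ependymal-like cells on 23 UMIs.

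Of the leukocyte α subunits, which pair with Itgb2, Itgam, Itgal and Itgax were highest in microglia or blood-derived clusters, and Itgad was not. Itgam, the α subunit of complement receptor 3, averaged 612 ± 390 CPM in myeloid cells (n = 5) and 572 ± 151 CPM in Cluster 6 microglia (n = 14), and the 2 did not differ beyond their spread, with myeloid cells higher in 1 of 5 mice. An Itgam UMI was seen in 48.6% of Cluster 6 cells at a median depth of 780.5 UMIs, against 1.49% of neurons at 1848.0 UMIs. Itgal, which binds ICAM-1 and ICAM-2 and holds leukocytes to endothelium, was at 172 ± 94.6 CPM in myeloid cells and 84.3 ± 58.2 CPM in immune cells. Itgax, known as a mark of dendritic cells and of activated microglia, was highest in Cluster 10 microglia at 85.8 ± 91.3 CPM (n = 14). Its level in that cluster ran from 0 to 252 CPM, and it was above Cluster 6 in 9 of 14 mice, below it in 3 and equal in 2. Its leading cell type changed in 1 of 23 alternative settings: without the mice whose cell names gave another condition, Itgax led in myeloid cells. Itgad, another subunit of this group, had 220.0 UMIs in all and its highest mean, 22.1 CPM, in Cluster 4 oligodendrocytes, and Itgae, which binds E-cadherin, reached 16.996 CPM in immune cells.

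Itgb1, the β subunit shared by most laminin, collagen and fibronectin receptors, was read in every cluster. Its mean was 750.5 ± 184 CPM in pericytes, 496 ± 170 CPM in fibroblasts, 435 ± 74.3 CPM in endothelial cells and 53.2 ± 24.5 CPM in neurons. Pericytes were above endothelial cells in 14 of 15 mice. Itgb4, which anchors cells to laminin, was at 165 ± 82.9 CPM in Cluster 8 oligodendrocytes and 161 ± 58.6 CPM in Schwann cells. Within mice that had both, Itgb4 was higher in Cluster 8 than in Cluster 4 of oligodendrocytes in 13 of 14.

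Itgb5, the β subunit of a vitronectin receptor that phagocytes use, marked microglia (ENSMUSG00000022817.15, chr16:33829665-33949338, + strand). In Cluster 6 its lowest value was 685 CPM, its median 1171 CPM and its highest 1488 CPM over 14 mice. The mean of 1139 ± 213 CPM was 5.34 times that of immune cells, the next cell type at 213 ± 182 CPM, and Cluster 6 was higher in 10 of 10 mice with both. Cluster 10 microglia lay below Cluster 6 in 14 of 14 mice, at 834 ± 326 CPM. Itgb3, another vitronectin receptor subunit, also led in Cluster 6, at 44.9 ± 49.7 CPM.

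Itgb8, whose pair with Itgav releases TGF-β from its latent form, belonged to glia. It averaged 487 ± 97.5 CPM in Cluster 7 astrocytes, 460.2 ± 207 CPM in Schwann cells and 441 ± 168 CPM in Cluster 5 astrocytes, values that did not differ beyond their spread. Within mice that had both, Itgb8 was higher in Cluster 7 than in Schwann cells in 3 of 5, and than in Cluster 5 in 10 of 14. Oligodendrocyte and precursor clusters lay between 135 and 156 CPM. Itgb2, the β subunit of leukocytes, was at 582 ± 138 CPM in myeloid cells, 375 ± 142 CPM in immune cells, 359 ± 117 CPM in Cluster 10 and 262 ± 64.4 CPM in Cluster 6. Neurons had 2.51 CPM of Itgb2 and endothelial cells 1.26 CPM. Itgb7, a partner of Itga4 on lymphocytes, led in myeloid cells at 149 ± 283 CPM on 11 UMIs, so that order rests on few molecules. Itgb6, an epithelial subunit, had 103 UMIs in all.

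The 2 microglia clusters differed in their integrins, described within mice and with no test. Itgam was higher in Cluster 6 than in Cluster 10 in 14 of 14 mice, at 572 against 354 CPM. Itga9 was higher in Cluster 6 in 13 of 14 mice, at 125 against 36.8 CPM, and Itga6 in 13 of 14, at 322 against 214 CPM. Itgb2 went the other way, higher in Cluster 10 in 11 of 14 mice at 359 against 262 CPM, as did Itga5 in 12 of 14 at 48.8 against 21.5 CPM.

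Of the laminin α chains, Lama2, the chain of muscle and Schwann cell basement membranes, averaged 709 ± 206 CPM in pericytes, 514 ± 381 CPM in fibroblasts and 414 ± 288 CPM in Schwann cells. Endothelial cells, beside the pericytes on the same vessels, had 8.83 ± 5.40 CPM of Lama2. Within astrocytes Lama2 separated the clusters: Cluster 7 had 508 ± 133 CPM and Cluster 5 had 92.2 ± 94.1 CPM in the 14 mice with both, and Cluster 7 was higher in 14 of 14. Lama4 and Lama5, the α chains of endothelial basement membranes, were read in both cell types of the vessel wall and beyond it. Lama4 was at 256 ± 82.1 CPM in pericytes, 218 ± 68.5 CPM in endothelial cells, 211 ± 89.8 CPM in fibroblasts and 144 ± 127 CPM in Schwann cells, and pericytes were above endothelial cells in 11 of 15 mice. Lama5 was at 67.6 ± 18.9 CPM in endothelial cells, 57.1 ± 34.8 CPM in pericytes and 42.2 ± 26.5 CPM in ependymal-like cells, and endothelial cells were above pericytes in 10 of 15 mice.

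Lama1, an α chain of early embryos and of the pial surface, was highest in fibroblasts, where it varied widely between mice (ENSMUSG00000032796.8, chr17:67697259-67822647, + strand). Fibroblasts had 0 CPM of Lama1 in the 1 uninjured mouse with enough of these cells, 184, 955 and 44.6 CPM at 1 d, 324 and 8.04 CPM at 7 d, and 26.3, 177 and 1334 CPM at 14 d. The mean of 339 ± 478 CPM over 9 mice was 16.2 times the next, 20.9 CPM in oligodendrocyte precursors, and fibroblasts were higher in 8 of 9 mice. High and low mice occurred at each time after injury. Of 768 Lama1 UMIs in all, 377 were in these fibroblasts, 296 of them from cKO 14 d replicate 2. The fibroblasts held 11 Lama1 UMIs at 1 d and 15 at 7 d, so the levels at those times rest on few molecules. Lama3, an α chain of epithelial basement membranes, led in ependymal-like cells at 95.2 ± 39.6 CPM (n = 10), with 35.8 ± 15.7 CPM in endothelial cells.

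Of the β chains, Lamb1 was a Schwann cell gene (ENSMUSG00000002900.16, chr12:31265234-31329644, + strand). The 5 mice with enough Schwann cells had 180, 244, 522, 287 and 494 CPM of Lamb1, the second on 1 UMI. The mean of 345 ± 154 CPM was 3.11 times that of fibroblasts, whose mean of 111 ± 170 CPM was raised by WT 1 d replicate 1 at 551 CPM on 3 UMIs. Each mouse with both had more in Schwann cells, and in 2 of 23 alternative settings pericytes led. Lamb2, the β chain of mature vessel basement membranes, was at 430 ± 191 CPM in pericytes, 425 ± 354 CPM in fibroblasts, 264 ± 91.3 CPM in endothelial cells and 161 ± 136 CPM in ependymal-like cells. Pericytes and fibroblasts did not differ beyond their spread, and which of them led changed in 13 of 23 alternative settings. Lamb3, of epithelial laminin, reached 25.9 CPM in myeloid cells on 27 UMIs.

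Of the γ chains, Lamc1, present in most laminins, was at 413 ± 101 CPM in pericytes, 326 ± 181 CPM in fibroblasts, 162 ± 83.9 CPM in Schwann cells and 103 ± 16.9 CPM in endothelial cells. Lamc3, a γ chain of retina and brain, was nearly a pericyte gene (ENSMUSG00000026840.14, chr2:31887291-31946539, + strand). Its lowest, median and highest levels in pericytes were 53.5, 195 and 332 CPM over 15 mice, and the mean of 203 ± 71.9 CPM was 5.56 times that of Schwann cells, with pericytes higher in 4 of 5 mice. The Schwann mean of 36.5 ± 80.2 CPM came almost wholly from cKO 1 d replicate 2, at 179.9 CPM on 6 UMIs. Pericytes had more Lamc3 than endothelial cells in 15 of 15 mice, at 203 against 16.8 CPM. Over the 23 alternative settings, 26 to 36 of the 36 genes kept the cell type of their highest mean.

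**Figure D2:**
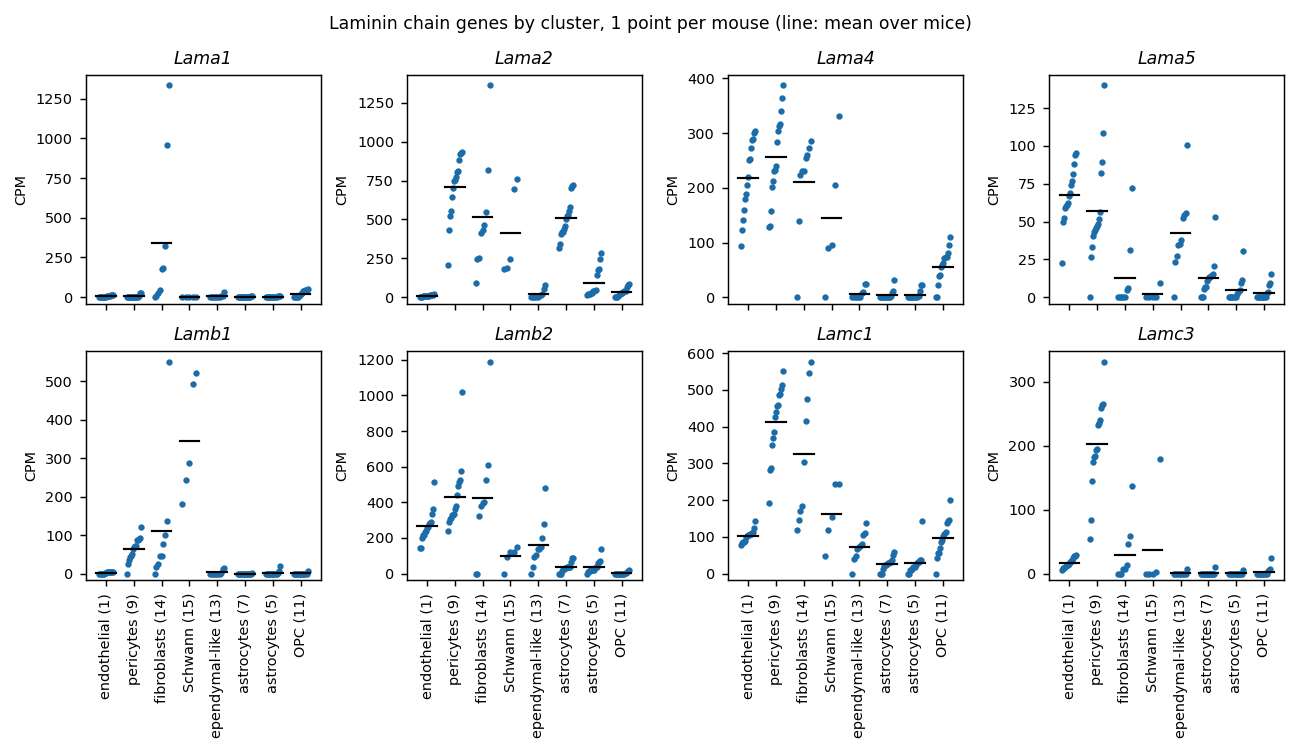
Level of 8 laminin chains in CPM, 1 point per mouse, in 8 clusters. Pericytes and endothelial cells both carried Lama4, Lama5 and Lamb2, and Lama2 was high in pericytes and almost absent from endothelial cells.

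To ask which of these genes changed after injury, UMIs were summed per mouse in 7 classes and tested with edgeR, each time against uninjured with the genotype in the same fit and p-values adjusted over all genes tested. The 3 comparisons of a class share their uninjured mice. With 2 mice for most conditions, the p-values reflect the spread between these mice. Between 5 and 15 of the 37 genes had enough UMIs to be tested in a class, mostly those that were high there. Over all classes and times, 2 tests passed, both in microglia at 14 d: Itgax rose and Itga9 fell.

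In microglia (Clusters 6 and 10, 14 mice) 11 of the 37 genes were tested. edgeR called 0 of them at 1 d, beside 2.3% of 7348 genes, 0 at 7 d, beside 0.354%, and 2 at 14 d, beside 1.74%. An unadjusted p under 0.05 was reached by 2, 1 and 5 of the 11, and by 1341, 647 and 949 of all genes, and DESeq2 called 3 over the times, Itgb5 at 1 d and Itgax and Itga9 at 14 d. Over all genes and times DESeq2 made 607 calls and edgeR 323. The median log2 difference of the 11 was −0.34 at 1 d, −0.03 at 7 d and −0.07 at 14 d, and that of all genes −0.02, 0.01 and 0.01.

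Itgax (ENSMUSG00000030789.9, chr7:128129547-128150657, + strand) was almost absent from microglia before injury. Uninjured mice had 11.6 and 15.02 CPM in WT and 0 CPM in cKO, on 5 Itgax UMIs together. At 1 d the level was 13.9 CPM in WT and 20.5 and 0 CPM in cKO, at 7 d 24.1 and 119 CPM in WT and 59.4 and 11.96 CPM in cKO, and at 14 d 71.5 and 122 CPM in WT and 90.4 and 147 CPM in cKO. All 4 mice at 14 d lay above all 3 uninjured and all 3 mice at 1 d, while the mice at 7 d were split between low and high in both genotypes.

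The rise of Itgax at 14 d was 3.52 on the log2 scale (SE 0.85, edgeR adjusted p = 0.0384), higher in 4 of 4 mice. Counted over summed UMIs, 541 at 14 d against 5 in uninjured mice, the ratio of shares was 10.5, with a 95% interval for counting error of 4.48 to 32.5. Differences at 7 d, 2.49 (adjusted p = 0.348), and at 1 d, −0.57 (adjusted p = 0.896), did not pass. The one at 7 d passed without a filter on low counts (2.61, adjusted p = 0.00765) and without replicate 1 (2.59, adjusted p = 0.0209), and it was 1.49 (adjusted p = 0.779) without WT 7 d replicate 2. In each cluster alone no member passed at any time; in Cluster 10 the Itgax difference at 14 d was 3.84 (adjusted p = 0.217).

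Itga9 moved the other way in microglia. Uninjured mice had 202 and 165 CPM in WT and 104 CPM in cKO. At 1 d Itga9 was at 69.3 CPM in WT and 133 and 55.7 CPM in cKO, at 7 d at 40.1 and 122 CPM in WT and 34.6 and 165 CPM in cKO, and at 14 d at 45.8 and 59.6 CPM in WT and 55.1 and 68.7 CPM in cKO. All mice at 14 d were below all uninjured mice, whereas 1 d and 7 d overlapped with them.

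At 14 d Itga9 fell by 1.56 on the log2 scale (SE 0.40, adjusted p = 0.0474), lower in 4 of 4 mice. The differences at 1 d, −1.13 (adjusted p = 0.243), and at 7 d, −0.83 (adjusted p = 0.569), did not pass. In Cluster 6, where Itga9 is highest, the difference at 14 d was −0.86 (adjusted p = 0.751), and in Cluster 10 it was −1.68 (adjusted p = 0.474).

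**Figure D3:**
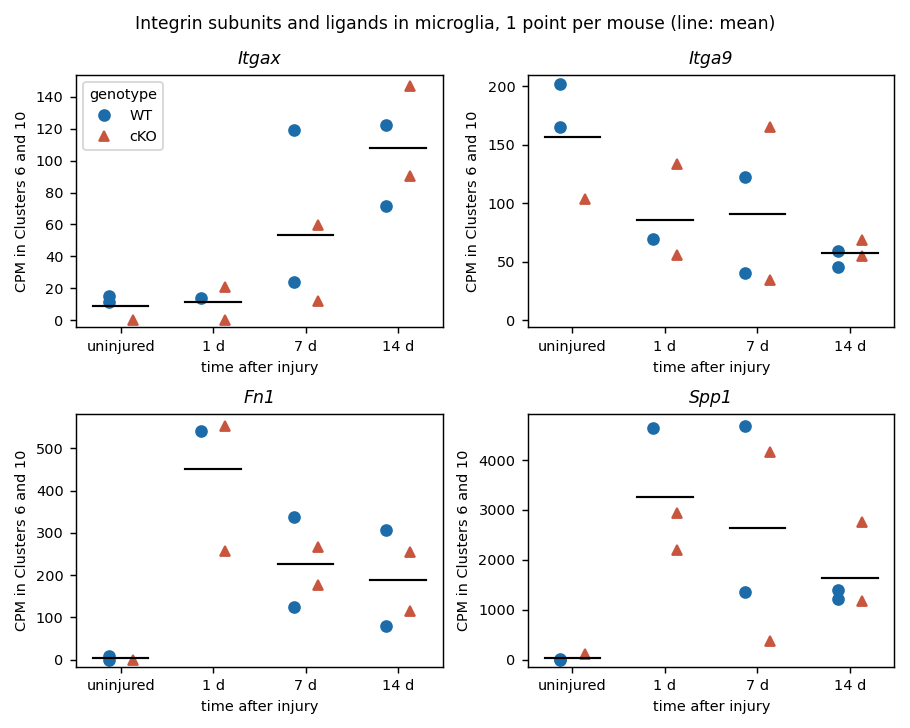
Level of Itgax, Itga9, Fn1 and Spp1 in microglia in CPM, 1 point per mouse, uninjured and at 1 d, 7 d and 14 d (circles WT, triangles cKO, line the mean). At 14 d all 4 mice lay above the uninjured mice for Itgax and below them for Itga9.

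Both calls in microglia were fragile. With the conditions of the cell names neither passed, at 2.94 for Itgax (adjusted p = 0.558) and −1.77 for Itga9 (adjusted p = 0.157). Without the mice whose cell names gave another condition, 9 mice were left and only 1 of them uninjured, so the loss of both calls there, at 2.94 for Itgax (adjusted p = 0.309) and −2.05 for Itga9 (adjusted p = 0.212), says little. Without the 4 shallow libraries both passed, at 3.69 for Itgax (adjusted p = 0.0356) and −1.49 for Itga9 (adjusted p = 0.0154), and without the cells with shared barcodes both passed. Over all alternatives the Itgax difference ran from 2.94 to 6.001 (adjusted p from 1.3e-07 to 0.558) and that of Itga9 from −2.05 to −0.86 (adjusted p from 0.00783 to 0.751), with the direction kept throughout.

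Leaving out single mice also ended calls. The Itgax rise did not pass without WT uninjured replicate 1 (3.56, adjusted p = 0.186), WT uninjured replicate 2 (3.84, 0.135), cKO uninjured replicate 2 (3.31, 0.118), WT 1 d replicate 1 (3.54, 0.0520), WT 14 d replicate 2 (3.67, 0.0567), cKO 14 d replicate 1 (3.54, 0.0603) or cKO 14 d replicate 2 (3.36, 0.0575). The Itga9 fall did not pass without any of these 7 mice, with differences of −1.36, −1.47, −1.76, −1.51, −1.53, −1.51 and −1.60 in the same order and adjusted p of 0.233, 0.172, 0.0773, 0.0759, 0.121, 0.112 and 0.0807. It also did not pass without cKO 1 d replicate 1 (−1.53, 0.0554), WT 7 d replicate 1 (−1.54, 0.0526) or WT 14 d replicate 1 (−1.55, 0.0664).

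The mix of microglia clusters and the levels of immune, microglia and neutrophil markers were read in the same mice. Cluster 10 made up 14.1%, 41.8% and 42.1% of microglia in the uninjured mice and 44.0%, 54.5%, 57.4% and 62.5% at 14 d. At 1 d its share was 28.1%, 25.5% and 55.7%, and at 7 d 28.9%, 47.5%, 30.4% and 42.4%, and both groups overlapped with the uninjured mice. The summed level of 5 immune markers (Ptprc, Cd74, Mrc1, Ccr2, Lyz2) was 765, 1194 and 736 CPM in uninjured mice, 1552, 1374 and 586 CPM at 1 d, 4555, 3841, 3858 and 1443 CPM at 7 d, and 3447, 2194, 2971 and 3176 CPM at 14 d. Lyz2, a lysozyme gene of monocytes and macrophages, was the most abundant of them in all mice at 14 d, and it rose by 2.46 (adjusted p = 0.0203), while Ptprc (0.39, adjusted p = 0.625) and Cd74 (1.21, adjusted p = 0.389) did not pass. Ccr2, a monocyte gene, was at 0 in the 3 uninjured mice and above 0 in all 4 mice at 14 d. P2ry12, a gene of resting microglia, fell by 1.38 at 14 d (adjusted p = 0.00939), and the 3 other such genes did not pass: Tmem119 (−0.99, adjusted p = 0.0979), Csf1r (−0.16, adjusted p = 0.887) and Cx3cr1 (−0.12, adjusted p = 0.929). Neutrophil markers (S100a8, S100a9, Ly6g) summed to between 0 and 38.7 CPM over the 14 mice. At the earlier times P2ry12 fell by 1.91 at 1 d (adjusted p = 0.00304) and Lyz2 rose by 2.66 at 7 d (adjusted p = 0.0289). The part of the cluster mix or of other cells in the changes of Itgax and Itga9, and of Fn1 and Spp1 below, was not tested.

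Among the other subunits in microglia, 4 had an unadjusted p under 0.05 and did not pass. Itgb5 differed by −0.84 at 1 d (adjusted p = 0.146), Itgb2 by 0.62 at 14 d (adjusted p = 0.313), Itga5 by 1.47 at 14 d (adjusted p = 0.238) and Itga4 by 2.09 at 14 d (adjusted p = 0.313), the last on 3 uninjured UMIs with a ratio of 4.08 (1.37 to 20.1, counting error). Leaving out 1 mouse moved the Itga4 difference to between 1.68 and 6.99, the highest without WT uninjured replicate 1, and that of Itga5 to between 0.69 and 2.33. These genes were named after their values were seen. Itgam, the commonly used microglia mark, was at 288, 323 and 780.2 CPM in the uninjured mice and 296 to 526.3 CPM at 14 d, and the groups overlapped.

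Ligands were read from a list of 35 genes of basement membranes, integrin ligands and integrin adaptors. In microglia 19 of them were tested, and at each of the 3 times 2 rose and 0 fell. Among all 7348 genes, the risen and the fallen numbered 114 and 55 (1 d), 24 and 2 (7 d), and 97 and 31 (14 d). The 2 listed genes that rose are matrix ligands. They are Fn1, fibronectin, bound by receptors with Itga5 and Itga4, and Spp1, osteopontin, bound by receptors with Itgav and Itga9. In the other 6 classes 0 of the 12 to 28 listed genes tested were called by edgeR at any time or between genotypes, and of all genes at most 0.977% were.

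Fn1 was at 0, 7.51 and 0 CPM in uninjured microglia, on 1 UMI. It was at 541, 554 and 257 CPM at 1 d, 337, 124, 267 and 177 CPM at 7 d, and 78.6, 307, 254 and 115 CPM at 14 d. Every injured mouse lay above every uninjured one, in both genotypes. The rise of Fn1 was 7.51 at 1 d (adjusted p = 0.000557), 6.56 at 7 d (adjusted p = 0.00474) and 6.33 at 14 d (adjusted p = 0.00252), and the summed ratios were 163 (28.9 to 6475), 90.3 (16.1 to 3577) and 102 (18.4 to 4052). Leaving out 1 mouse kept every Fn1 call, but the size depended on WT uninjured replicate 2, which held the 1 uninjured UMI: without it the differences, now over 0 uninjured UMIs, were 11.02, 10.10 and 9.88, and the lowest, without WT uninjured replicate 1, were 6.38, 5.45 and 5.22. When mice were assigned by their cell names, the Fn1 differences were 6.74, 5.85 and 5.97 and did not pass (adjusted p = 0.133, 0.225 and 0.104). Cluster 6 alone gave 6.28, 3.08 and 2.65 (adjusted p = 0.0517, 0.825 and 0.851), and Cluster 10 alone 10.55, 10.23 and 9.49, which passed (adjusted p = 0.00991, 0.00996 and 0.0338). Only 1 uninjured UMI of Fn1 was read over both clusters, so the differences of at least 1 cluster stood over 0 uninjured UMIs.

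Spp1 was at 3.88, 0 and 115 CPM in uninjured microglia. Its level was 4643, 2944 and 2191 CPM at 1 d, 4691, 1349, 4165 and 377 CPM at 7 d, and 1217, 1384, 2756 and 1166 CPM at 14 d. Every injured mouse was above the highest uninjured one, though cKO 7 d replicate 2 by least. Spp1 rose by 6.74 at 1 d (adjusted p = 0.00304), 6.56 at 7 d (adjusted p = 0.00474) and 5.81 at 14 d (adjusted p = 0.0078), and it passed with the conditions of the cell names too. Leaving out 1 mouse kept every Spp1 call, and without cKO uninjured replicate 2, which held 10 of the 11 uninjured UMIs, the differences were 10.20, 10.03 and 9.32. The lowest Spp1 differences, without WT uninjured replicate 1, were 5.88, 5.70 and 4.97. In Cluster 6 alone the Spp1 differences of 10.76, 9.79 and 7.21 did not pass (adjusted p = 0.115, 0.499 and 0.802), and those of 5.56, 5.49 and 4.34 in Cluster 10 alone passed (adjusted p = 0.00234, 0.00427 and 0.0227). Both clusters together held 11 uninjured UMIs of Spp1, so these sizes rest on few molecules. Without the mice of doubtful condition 1 uninjured mouse remained, with 0 UMIs of Fn1 and 1 of Spp1, which is no basis for a test of either ligand.

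In astrocytes (Clusters 2, 5 and 7, 15 mice) edgeR called 0 of 11 integrin and laminin genes at 1 d, beside 0.303% of 8923 genes, and 0 at 7 d and at 14 d, beside 0% and 0%. An unadjusted p under 0.05 was reached by 1, 0 and 0 of them, and by 489, 562 and 333 of all genes, and DESeq2 called 1, among 51 calls over all genes and times where edgeR made 27. The median of the 11 was 0.18, −0.24 and −0.10 at 1 d, 7 d and 14 d, and that of all genes −0.10, −0.03 and −0.03. Without Cluster 2 the count was also 0.

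The call of DESeq2 in astrocytes was Itga5, the fibronectin receptor subunit. Uninjured mice had 0 and 1.35 CPM in WT and 0 and 0 CPM in cKO, on 1 UMI. At 1 d Itga5 was at 50.4 CPM in WT, on 3 UMIs, and at 46.0 and 30.2 CPM in cKO, on 2 and 28. At 7 d it was at 0 and 0 CPM in WT and 0 and 2.64 CPM in cKO, and at 14 d at 2.14 and 0 CPM in WT and 3.23 and 5.88 CPM in cKO. All 3 mice at 1 d stood above the other 12.

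The edgeR difference of Itga5 at 1 d was 4.91 (SE 1.08, adjusted p = 0.0756), and the summed ratio was 62.0 (10.4 to 2524). DESeq2 gave 4.99 (adjusted p = 0.0149). In edgeR Itga5 passed in 4 alternatives: with cells of shared barcodes left out (5.01, adjusted p = 0.0476), without WT 14 d replicate 2 (5.09, adjusted p = 0.0306), without a filter on low counts (4.87, adjusted p = 0.00106) and with the animal number series as a covariate (4.80, adjusted p = 0.0167). The last 2 settings also raised the calls over all genes from 27 to 294 and 640. Leaving out 1 mouse moved the Itga5 difference to between 4.05 and 7.04. Over all alternatives the adjusted p ran from 0.00106 to 1.0. Without the mice of doubtful condition the difference was 6.96 (adjusted p = 0.270), over 2 uninjured mice with 0 UMIs of Itga5.

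In endothelial cells (15 mice) edgeR called 0 of 14 at 1 d, 7 d and 14 d, beside 0.0544%, 0% and 0% of 9186 genes. Unadjusted, 1, 1 and 3 of the 14 and 509, 1053 and 913 of all genes had p under 0.05, and DESeq2 called 0. Medians were 0.00, −0.03 and −0.09, and over all genes −0.02, −0.05 and −0.04. The genes behind these counts were Lama4, which differed by 0.55 at 7 d and 0.54 at 14 d (adjusted p = 0.415 and 0.476), Itgb8 by −1.89 and Lama3 by −0.73 at 14 d (both 0.468), and Itga6 by −0.51 at 1 d (adjusted p = 0.9). Itgb8 passed at 14 d in 3 alternatives: without a filter on low counts (−1.76, adjusted p = 0.0132), with the animal number series as a covariate (−2.56, adjusted p = 0.00527) and without replicate 1 (−2.58, adjusted p = 1.8e-05). Calls over all genes went from 5 to 436, 532 and 5816 in these settings. Leaving out 1 mouse moved the Itgb8 difference to between −2.49 and −0.79, the smallest without WT uninjured replicate 2.

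Lama4 in endothelial cells was at 141 and 93.4 CPM in uninjured WT and 299.6 and 122 CPM in uninjured cKO. It was 159 to 205 CPM at 1 d, 220.2 to 288 CPM at 7 d and 189 to 305 CPM at 14 d. The single uninjured cKO mouse at the level of the later groups made the groups overlap. Without replicate 1, which left 7 mice, Lama4 passed at 7 d (1.00, adjusted p = 8.5e-05) and at 14 d (1.06, adjusted p = 3.5e-05), in a setting where 5816 tests of all genes passed.

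In pericytes (15 mice) edgeR called 0 of 15 at each time, beside 0%, 0% and 0% of 4696 genes. Unadjusted, 0 of the 15 reached p under 0.05 at any time, against 172, 169 and 206 of all genes, and DESeq2 called 0. The medians of the 15 were −0.16, 0.01 and 0.22, and of all genes −0.00, −0.01 and 0.01.

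In neurons (15 mice) edgeR called 0 of 11 at 1 d, beside 0% of 7059 genes, 0 at 7 d, beside 0%, and 0 at 14 d, beside 0.977%. Unadjusted, 0, 0 and 3 of the 11 and 238, 661 and 1083 of all genes had p under 0.05, and DESeq2 called 0. The 3 at 14 d were Lama2 (1.03, adjusted p = 0.0949), Lama4 (1.19, adjusted p = 0.178) and Itga9 (0.70, adjusted p = 0.248). Lama2 in neurons was at 39.2 to 80.8 CPM in uninjured mice, with 58 UMIs, and at 105 to 143 CPM at 14 d, with 578 UMIs, and the 2 groups did not overlap. The part of free RNA from cells rich in Lama2 was not tested. Medians of the 11 were −0.01, 0.02 and 0.13, and of all genes −0.11, −0.05 and −0.03.

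In oligodendrocytes (Clusters 4 and 8, 15 mice) edgeR called 0 of 8 at each time, beside 0%, 0% and 0% of 6541 genes, and DESeq2 called 0. Before adjustment 0 of the 8 had p under 0.05, against 291, 328 and 364 of all genes. The medians were −0.24, −0.30 and −0.19, against −0.02, −0.01 and −0.01 over all genes. In oligodendrocyte precursors (14 mice) edgeR called 0 of 5 at each time, beside 0%, 0% and 0% of 3416 genes, and DESeq2 called 0. Before adjustment 0 of the 5 had p under 0.05, against 140, 216 and 178 of all genes. Their medians were −0.15, −0.44 and −0.31, against −0.05, −0.02 and 0.01. Itga9 in the precursors was at 824 to 1191 CPM in uninjured mice, 585 to 939 CPM at 1 d, 465.97 to 1359 CPM at 7 d and 705 to 1011 CPM at 14 d, and all groups overlapped.

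Clusters with at most 1 uninjured mouse were not tested and are described by their values. In immune cells Itgam was at 345 to 762 CPM in the 3 mice at 1 d, 92.8 to 196 CPM in 3 mice at 7 d, 95.3 to 165 CPM in 3 mice at 14 d and 115 CPM in 1 uninjured mouse, so the mice at 1 d stood above all others. Itga4 in the same cells was at 311 CPM in the uninjured mouse, on 19 UMIs, 112 to 169 CPM at 1 d, 124 to 594 CPM at 7 d and 159 to 589 CPM at 14 d, so the uninjured mouse lay above all mice at 1 d and within the range of the later ones. In fibroblasts Itgb1 was at 678 CPM in the 1 uninjured mouse, on 16 UMIs, and ran from 273 to 734 CPM at 1 d, 416 to 640.3 CPM at 7 d and 293 to 542 CPM at 14 d. Ependymal-like cells had 94.3 to 140.4 CPM of Lama3 at 1 d, 27.4 to 116 CPM at 7 d and 88.1 to 127 CPM at 14 d, on 12, 14 and 69 UMIs, and 25.1 CPM in the 1 uninjured mouse, on 1 UMI.

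Genotype was compared over all times in the same fits. Of the integrin and laminin genes edgeR called 0 between cKO and WT in each of the 7 classes, beside 0% of all genes in each. Unadjusted, 1 gene in pericytes and 1 in neurons had p under 0.05, and 0 in the other 5 classes, against 85 to 131 of all genes per class, and DESeq2 called 0 in every class. The 2 were Itgb5 in pericytes, with a difference of 0.52 (adjusted p = 1.0), and Lama2 in neurons, with 0.51 (adjusted p = 1.0). In astrocytes, the cells that Cre targets, the median of the 11 tested was −0.04, beside −0.01 over all genes, in microglia −0.01 beside −0.00, in endothelial cells 0.07 beside −0.00 and in neurons 0.29 beside 0.05. In pericytes it was 0.03 beside −0.01, in oligodendrocytes −0.07 beside −0.02 and in precursors 0.05 beside −0.00. Itgax and Itga9 in microglia differed by −0.52 and −0.01 between genotypes (adjusted p = 1.0 for both). A genotype effect at a single time was not tested.

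All 37 symbols were found in the mm10 annotation. Itga1, Itga10 and Itgam share bases with another protein-coding gene on the same strand, and how UMIs of the overlap were counted was not tested. Itgam and Itgax are neighbours on chromosome 7, both pair with Itgb2 and both are used as marks of myeloid cells. In microglia Itgax rose at 14 d and Itgam did not pass, except at 7 d when replicate 1 was left out, and the difference between the 2 genes was not tested. Their upstream stretches are shown because myeloid genes are known for the PU box, the letters GAGGAA bound by the factor PU.1. RefSeq (GRCm38.p6) gives the 250 bases before the start at chr7:128062390-128062639 for Itgam and chr7:128129300-128129549 for Itgax, both on the + strand. Capitals mark GAGGAA or its reverse complement TTCCTC.
Itgam: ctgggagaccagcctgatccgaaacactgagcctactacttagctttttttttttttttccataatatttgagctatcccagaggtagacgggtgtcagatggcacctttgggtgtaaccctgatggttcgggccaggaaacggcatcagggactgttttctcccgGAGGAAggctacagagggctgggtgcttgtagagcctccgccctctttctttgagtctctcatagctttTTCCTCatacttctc
Itgax: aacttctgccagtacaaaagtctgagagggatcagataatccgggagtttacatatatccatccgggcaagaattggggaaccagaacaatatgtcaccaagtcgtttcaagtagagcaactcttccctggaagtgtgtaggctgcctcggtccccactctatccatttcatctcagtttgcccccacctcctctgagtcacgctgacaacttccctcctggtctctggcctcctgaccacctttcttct
The Itgam stretch held 1 match on each strand and the Itgax stretch 0. Of the 26 promoters that RefSeq lists for 23 of the 37 genes, 13 held a match, beside 7639 of 32851 promoters of all genes (23.3%). These are letters in a window and say nothing of binding.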

How the data were processed

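The authors had aligned the reads with Cell Ranger to mm10 (GRCm38), clustered with Seurat in R 4.1.2 and deposited raw UMI counts, which were used as they are, with the authors' cell table (counts, genes, batch, cluster and condition per cell). They had kept cells with more than 200 genes and under 25% mitochondrial UMIs.

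UMIs were summed per mouse and class for mice with at least 50 cells in all and 10 in the class, and tested with edgeR 4.0.16 in R 4.3.3 (TMM, filterByExpr, quasi-likelihood, time plus genotype), with Benjamini-Hochberg adjustment over all genes of a comparison and a threshold of 0.05. DESeq2 1.42.0 was the second tool. The edgeR fit was tested on simulated data. Levels, figures and intervals were made in Python 3.11.15 (numpy 2.4.6, pandas 2.3.3, scipy 1.17.1, matplotlib 3.10.9). Gene positions come from GENCODE by symbol.

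The replicate number equals the authors' batch in 16 of 16 mice. Between mice of the same number in different conditions, deviations had a median correlation of 0.0546 for microglia (6 of 15 pairs above 0.1) and 0.0873 for endothelial cells (10 of 21).

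The genes and lists were chosen with earlier results of these data known. Named genes were up to 12 called members, members with a highest mean of at least 100 CPM and 3 times the next cell type, and up to 3 called genes of the ligand and adaptor list per class. Leaving out cells with shared barcodes, the 4 shallow libraries, or the mice whose cell names gave another condition was chosen after seeing the data.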

Additional observations from a re-analysis of the deposited data

Results flagged for a closer look

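In 58 groups of 4 to 10 mice, 7 held a mouse far from the others. For normally distributed values the rule would mark about 1 group in 20 by chance. Where all mice but 1 have 0 UMIs the rule always marks that mouse, so this rate does not hold for sparse counts. In microglia at 14 d, WT replicate 1 had 296 CPM of Itgam, below 498 to 526.3 CPM in the others, and cKO replicate 1 had 2756 CPM of Spp1, above 1166 to 1384 CPM. In astrocytes Itga5 was at 1.35 CPM in WT uninjured replicate 2 and at 2.64 CPM in cKO 7 d replicate 2, with 0 in the other mice of both groups. In endothelial cells at 14 d, WT replicate 2 had 51.0 CPM of Lama3, above 20.5 to 23.7 CPM. In oligodendrocyte precursors at 7 d, WT replicate 2 had 1359 CPM of Itga9, above 465.97 to 601 CPM. In myeloid cells WT 1 d replicate 1 had 655 CPM of Itgb7 on 4 UMIs, above 0 to 46.9 CPM in the other 4 mice. The causes were not tested.

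Itga9 at 14 d went in opposite directions in 2 cell types: the log2 difference was 0.70 in neurons, where it did not pass, and −1.56 in microglia. The difference between the 2 cell types was not tested.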

How the results depend on the processing

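Between genotypes, 0 integrin and laminin genes were called under all 194 alternatives of the 7 classes. Over all genes 0 passed in the main fit of each class, and 3 to 18 without a filter on low counts. In oligodendrocytes after injury, 0 tests of all genes passed in the main fit. That number was 168 without a filter on low counts and 158 with the animal number series as a covariate. The count of integrin and laminin genes there was 0 under every alternative. Without a filter on low counts it was 1 in endothelial cells (Itgb8 at 14 d), 1 in astrocytes (Itga5 at 1 d), 1 in precursors (Itga6 at 7 d), 5 in neurons and 3 in microglia, where Itgax at 7 d was added. Over all genes 436, 294, 47, 836 and 726 tests passed there, against 5, 27, 0, 69 and 323 with the filter. With the animal number series as a covariate it was 1 in endothelial cells and 1 in astrocytes, the same genes, among 532 and 640 tests of all genes that passed. DESeq2 and leaving out cells of shared barcodes each gave 1 in astrocytes, again Itga5, among 51 and 30 tests. Without replicate 1, which leaves the second batch alone and 1 mouse at 1 d, it was 9 in endothelial cells, 1 in pericytes, 4 in astrocytes, 7 in microglia, 1 in precursors and 1 in neurons, where 5816, 565, 5509, 1585, 834 and 2182 tests of all genes passed. The 7 in microglia were Itga9 and Itgb5 at 1 d, which rest on that mouse, Itgam and Itgax at 7 d, and Itgax, Itga9 and Itgb2 at 14 d. In microglia, 2 by edgeR, the count was 0 with the conditions of the cell names, 0 without the mice whose cell names gave another condition, which leaves 1 uninjured mouse, 0 with 8 group means, 0 in Cluster 6 alone and 0 in Cluster 10 alone, and it was 2 with the replicate block, which changed no call in any class. Beside 323 tests of all genes in the main fit, 23 passed with the conditions of the cell names. In Cluster 6 alone 29 passed, and in Cluster 10 alone 71. Leaving out 1 mouse gave 0 to 2 integrin and laminin genes in microglia and 0 to 1 in astrocytes, the latter 1 without WT 14 d replicate 2. The count in microglia was 0 without WT uninjured replicate 1 or 2, cKO uninjured replicate 2 or WT 1 d replicate 1. It was also 0 without WT 14 d replicate 2 or cKO 14 d replicate 1 or 2. It was 1 without cKO 1 d replicate 1, WT 7 d replicate 1 or WT 14 d replicate 1. Over all genes 115 to 259 tests passed in the 7 settings with 0, and 223 to 422 in the 3 with 1. Of 711 values of 27 single differences, 656 stayed on their side of the threshold, 16 came to pass, 35 ceased to and 4 changed sign: Itgax in microglia at 1 d, main value −0.57, was 1.84 with the conditions of the cell names, 2.15 with group means and 0.78 without cKO 1 d replicate 2, and Itga9 at 1 d was 0.0584 in Cluster 10. None of these 4 passed. Without replicate 1 the Itgax difference at 1 d was −5.20 (adjusted p = 0.345), a fitted value for the 1 mouse left at 1 d, which had 0 UMIs of Itgax. The cause was not tested.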

Other observations

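Depth limited the rare genes: in the shallowest fibroblast sample 1 UMI of Lama1 stood for 184 CPM. The protein level, the pairing of α and β subunits and the place of the cells relative to the lesion were not measured. Uninjured microglia came from 3 mice with 477668 UMIs in all, against 4916989 at 14 d, so Itgax and Fn1 before injury rest on 5 and 1 UMIs.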
